A study of Mus musculus with 8 samples.

Results

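Camk1d, Lars2 and Gphn were described here as 3 genes that carried strong peaks of DNA:RNA immunoprecipitation in haematopoietic stem cells of both ages. They were chosen by their strongest peaks, which had a high fold in both ages and high and similar summit reads. The folds were less alike between the ages, as given below. Those values are a description and no test was made on them. A peak belonged to a gene when its summit lay within the GRCm38 bounds of the gene extended by 1 kb. This gave 29 of the 40207 peaks of the series, 15 in young and 14 in aged cells. Camk1d held 5 young and 6 aged peaks, Lars2 held 2 and 4, and Gphn held 8 and 4. The rule did not depend on the 1 kb margin. The outermost member summit lay 0.644 kb inside the nearest bound (Lars2, aged, 36 reads), and the nearest summit outside any bound lay 28.1 kb away (beyond Lars2, young, 15 reads).

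The series is strand-specific DNA:RNA immunoprecipitation sequencing (ssDRIP-seq) of mouse bone marrow cells sorted as lineage-negative, Sca1-positive, cKit-positive and CD34-negative, a gate for haematopoietic stem cells. Young and aged cells each gave 2 libraries immunoprecipitated with the S9.6 antibody, which binds DNA:RNA hybrids, and 2 input libraries without antibody, 8 samples in all. The labels call the ages young and aged without a number of months, give no strain, and list no treatment. The samples hold no control in which hybrids were removed, so whether a peak is an R-loop was not tested. The deposited result is 1 peak list per age and strand, 4 in all, which merges the replicates, so no spread between them can be given. Peaks do not measure RNA, and the sorted cell type was therefore not checked by expression. Of 6 gate and identity genes of stem cells 3 carried a peak in each age (Kit, Slamf1 and Mecom), and none of 6 marker genes of other blood cells did in either age. Over all protein-coding genes 23.8% had a young and 20% an aged peak, and the stem cell genes cover 704 kb against 95 kb for the other markers, so these counts do not check the cell type.

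R-loops form when a nascent RNA pairs with its template strand behind the RNA polymerase and leaves the other DNA strand unpaired. They are best known at promoters rich in G and C and at the ends of genes, and persistent ones can hinder replication. Camk1d encodes a calcium/calmodulin-dependent protein kinase that is switched on by upstream CaM kinase kinases. Lars2 encodes the leucyl-tRNA synthetase of mitochondria, which charges leucine onto mitochondrial tRNA. Gphn encodes gephyrin, a scaffold for inhibitory neurotransmitter receptors that also carries out the last steps of molybdenum cofactor synthesis in most tissues.

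None of the 29 peaks lay at a start of its gene, and the promoters are shown because R-loops are often described there. The sequences are the 250 bases before the outermost of the listed promoter starts (RefSeq, GRCm38.p6), read 5′ to 3′ on the strand of the gene. Capitals mark runs of at least 4 G (GGGG) or at least 4 C (CCCC), so that both strands are covered.
Camk1d, chr2:5714763-5715012, minus strand: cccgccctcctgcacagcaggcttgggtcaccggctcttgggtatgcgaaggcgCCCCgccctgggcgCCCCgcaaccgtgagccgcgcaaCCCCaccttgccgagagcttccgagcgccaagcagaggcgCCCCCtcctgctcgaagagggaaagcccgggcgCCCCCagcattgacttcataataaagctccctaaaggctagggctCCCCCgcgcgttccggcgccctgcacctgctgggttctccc
Lars2, chr9:123366677-123366926, plus strand: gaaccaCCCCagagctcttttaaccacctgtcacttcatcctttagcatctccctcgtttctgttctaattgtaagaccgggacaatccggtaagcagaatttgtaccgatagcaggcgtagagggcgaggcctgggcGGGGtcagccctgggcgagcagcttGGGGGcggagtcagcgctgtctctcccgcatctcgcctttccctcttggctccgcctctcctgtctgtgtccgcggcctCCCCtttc
Gphn, chr12:78226405-78226654, plus strand: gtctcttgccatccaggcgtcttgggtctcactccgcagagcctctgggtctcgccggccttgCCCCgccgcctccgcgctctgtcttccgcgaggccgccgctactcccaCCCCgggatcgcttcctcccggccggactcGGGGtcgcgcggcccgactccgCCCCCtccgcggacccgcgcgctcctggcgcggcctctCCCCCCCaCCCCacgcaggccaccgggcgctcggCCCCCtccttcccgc
Such a run of G or C was found in 83.1% of 32851 promoters of the same length, so its presence does not set these 3 apart. The content of G and C was 69.2% at Camk1d, 59.2% at Lars2 and 77.2% at Gphn, against a median of 52.4% over all promoters. All 3 promoters shown had more C than G on the strand of the gene, with a GC skew, the difference of G and C over their sum, of -0.179, -0.122 and -0.295. Of all promoters 12.4%, 21.4% and 3.45% had a lower skew. The nearest member summit lay 55.2 kb from the start shown for Camk1d, 11.1 kb for Lars2 and 31.6 kb for Gphn. The start shown for Gphn, chr12:78226655, lies inside the gene, whose 5′ bound is chr12:78217325. From that bound the nearest member summit lay 41.0 kb away. Camk1d has 1 further listed start, and an aged peak of 7 reads lay 16.5 kb from it, nearer than to the start shown. The 250 bases before that start had 48.4% G and C, below the median, and a GC skew of 0.157, with more G than C. Peaks in promoters were rare throughout the series, with 0.487% of the 300-base promoter windows of the table overlapped in young and 0.377% in aged.

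The number of reads at each summit and the local background under it follow from the fold and p-value of the peak, as the section on processing describes. The reads are given with 95% exact Poisson intervals, which cover counting error only and leave out the spread between mice, libraries and amplification. The sequencing depth is unknown, and the lists are named as normalized with no method given, so it is not known whether the libraries of the ages had been brought to a like size. The background of the whole genome, the level the peak caller falls back on, was 0.823 and 0.825 reads per position in the young forward and reverse lists and 0.689 and 0.69 in the aged lists.

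Camk1d held the peak with the highest fold of all young peaks. It lay on the reverse strand inside the gene, at chr2:5379040-5379446 in young and chr2:5379040-5379376 in aged cells, 336 kb from the 5′ bound of a gene of 421 kb, or 79.6% along it. The summit held 364 reads in young (95% interval 328 to 403) and 343 in aged cells (308 to 381). The intervals overlapped, and the ratio of aged to young reads was 0.942 (0.811 to 1.10). Divided by the genome background of each age the ratio was 1.13 (0.969 to 1.31), on the other side of 1 and with an interval that still included it. In its own age the summit ranked 63rd of 24009 young and 192nd of 16198 aged peaks by reads.

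The fold of this Camk1d peak was nevertheless 146 in young and 68.8 in aged cells. The local background was 1.5 reads in young and 4.0 in aged, 2.67 times as high. With the young background in place of the aged one, the aged fold would have been 138, and with the aged background the young fold would have been 73.0. The background at such sites moved in coarse steps. Among peaks over a background above 1.2 times the genome level, between 78.4% and 85.7% in the 4 lists had a background within 0.01 of a multiple of 0.5. The values 1.5 and 4.0 are both such multiples, and whether the difference between them reflects the steps was not tested. The counting error of this difference could not be computed because the reads behind the background are not in the lists.

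The Camk1d site kept its left edge to the base and its summit within 4 bp between the ages. The right edge lay 70 bp further out in young, so the peak was 407 bp wide in young and 337 bp in aged cells. In aged cells a second peak lay on the forward strand at chr2:5379154-5379376, with 14 reads (7.65 to 23.5), a fold of 6 and a summit 3 bp from the reverse summit. Both aged peaks ended at the same base. The reverse strand thus held 96.1% of the aged summit reads of the 2 strands (95% Clopper-Pearson interval 93.5 to 97.8). The young forward list had no peak within 144 kb of the site. The young forward list holds no peak of fewer than 6 reads, so a smaller signal would not appear in it. The forward background at the site in young cells is not known, and the number of reads needed there may be higher.

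Lars2 carried its strong site at the far end of the gene. The forward peak lay at chr9:123461800-123462232 in young and chr9:123461801-123462187 in aged cells, with the summits 673 and 687 bp inside the 3′ bound of a gene of 95.7 kb on the plus strand. The table of genes holds no exons, so the site was not assigned to an exon or UTR. The summit held 307 reads in young (274 to 343) and 290 in aged cells (258 to 325). Their ratio was 0.945 (0.802 to 1.11), and 1.13 (0.958 to 1.33) after division by the genome background. The local background was 5.0 in young and 3.5 in aged, and the folds were 51.3 and 64.7. The unscaled reads were slightly higher in young, as at Camk1d, while the fold was higher in aged, the opposite order to Camk1d.

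Lars2 was the only gene of the 3 whose strong site was called on both strands in both ages. The reverse peak lay at chr9:123461864-123462159 in young and chr9:123461864-123462184 in aged cells, inside the forward peak. It held 34 reads in young (23.5 to 47.5) and 36 in aged cells (25.2 to 49.8), a ratio of 1.06 (0.644 to 1.74). The forward strand held 90.03% of the summit reads of both strands in young (86.3 to 93.0) and 89.0% in aged cells (85.0 to 92.1). The balance of the strands was therefore close in the 2 ages, with intervals that overlapped almost fully. The fold of the reverse peak was 8.75 in young and 21.9 in aged cells, a 2.50-fold difference between peaks of nearly equal reads. Its background was 3.0 in young and stood at the genome level, 0.69, in aged cells.

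Gphn had the weakest of the 3 strong sites. The forward peak lay at chr12:78350808-78351165 in young and chr12:78350841-78351173 in aged cells, 134 kb from the 5′ bound of a gene of 467 kb, or 28.6% along it. The summit held 73 reads in young (57.2 to 91.8) and 61 in aged cells (46.7 to 78.4). Their ratio was 0.836 (0.585 to 1.19), and 0.999 (0.699 to 1.42) after division by the genome background. The intervals on both scales included 1 and were the widest of the 3 main sites.

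The Gphn site had a low local background. Its background was 1.28 in young and 0.724 in aged cells, which is 1.55 and 1.05 times the genome level. Of young peaks of at least 30 reads 89.2% lay over more than 2 times the genome level, and of aged ones 84.8%, so the Gphn peaks belonged to the smaller remaining share. The forward peak of Lars2 lay at 6.08 and 5.08 times the level in young and aged cells. The reverse peak of Lars2 lay at 3.64 times in young and at the genome level in aged cells. In aged cells it was thus also below the limit of 2 times. The Camk1d peak lay at 1.82 times in young and 5.80 times in aged cells, so it fell on either side of that limit in the 2 ages. How reads that map to several places were handled is not given in the sources used here, and their part in these peaks was not tested.

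At Gphn, as at Camk1d, the opposite strand was called in aged cells and not in young ones. The aged reverse peak lay at chr12:78350879-78351091 with 10 reads (4.80 to 18.4) and a fold of 6.51, and its summit lay 43 bp from the forward summit. The forward strand held 85.9% of the aged reads of both strands (75.6 to 93.0). The nearest young reverse peak lay 54.5 kb away, and the young reverse list holds no peak of fewer than 6 reads. All 4 aged member peaks of at least 30 reads thus met a peak of the other strand, and 2 of the 4 young ones did. In the whole series 73.1% of aged and 51.6% of young peaks of that strength did. Over all 15 young and 14 aged member peaks, 2 and 6 overlapped the opposite strand, against 1.62% and 9.24% of all peaks.

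**Figure D1:**
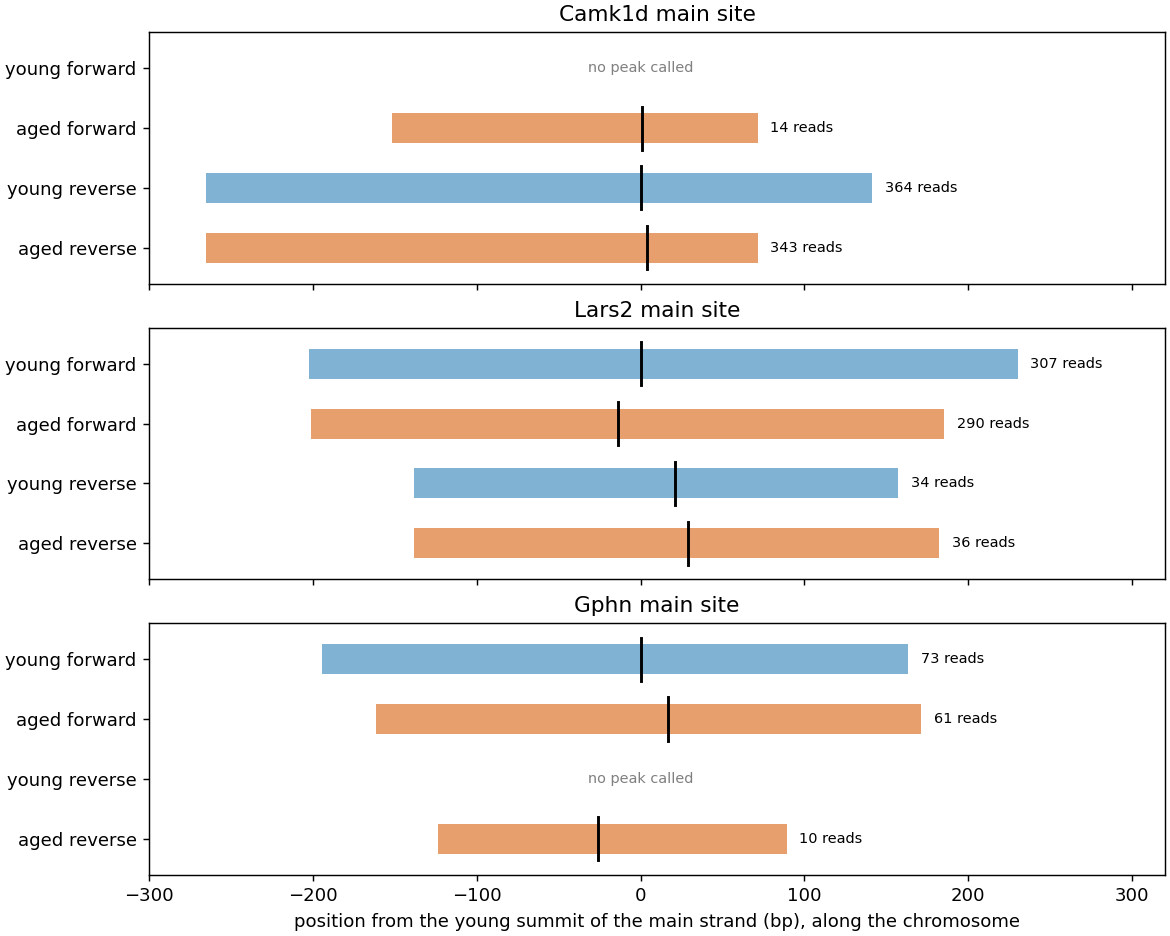
Extent of the peaks called at the strong site of each gene, by age and strand list, along the chromosome in bp from the young summit of the main strand. Bars are peaks and black lines are summits, with the summit reads beside them. At Camk1d both reverse peaks start at the same base, and at these sites the young forward list has no peak at Camk1d and the young reverse list has none at Gphn.

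The strong peak of each gene was in the list named after the strand of the gene. Camk1d lies on the minus strand and its strong peak was in the reverse lists, while Lars2 and Gphn lie on the plus strand and had theirs in the forward lists. Which DNA strand a list stands for is not stated in the labels. Peaks of at least 30 reads that lay in exactly 1 gene of known strand matched the gene in 49.2% of 65 young and 50% of 128 aged cases, so the agreement in 3 genes cannot be read as a property of strong peaks. Over all member peaks 8 of 15 young and 6 of 14 aged ones matched, and over all peaks in 1 gene 46.7% of young and 53.3% of aged ones did.

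Peaks of at least 30 reads, here 4 in each age, were 1.43% of all young and 3.4% of all aged peaks. The 4 strong pairs made up most of the signal of these genes. They held 778 of the 877 summed summit reads of young member peaks (88.7%) and 730 of the 817 of aged ones (89.4%). The remaining peaks were small and scattered along the genes. Of the 15 young member peaks 11 had at most 11 reads, with folds of 3.33 to 6.57, and of the 14 aged ones 9 did, with folds of 3.55 to 6.51. In all lists 88.8% of young and 81.9% of aged peaks were that small.

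Gphn held more of these small peaks in young than in aged cells, 7 against 3. The young ones held 8 to 11 reads and reached up to 91.8% along the gene, while beyond the strong site aged cells had none. Camk1d had 4 in each age, and Lars2 had 2 in aged cells only, with 8 reads each. In the whole series peaks of at most 11 reads were also more numerous in young, 21316 against 13263 in aged cells. For length, Gphn held 1.71 young and 0.856 aged peaks per 100 kb, Camk1d 1.19 and 1.42, and Lars2 2.09 and 4.18. All protein-coding genes together held 0.953 young and 0.678 aged peaks per 100 kb. At Lars2 both young peaks and 2 of the 4 aged ones were the strong site, counted once on each strand. The gene was chosen for that site, so its density is not a separate result. The 125 protein-coding genes of 400 to 500 kb had a median of 4 young peaks (quartiles 3 and 6) and 2 aged ones (1 and 4). The Gphn and Camk1d counts of 8 and 5 in young and 4 and 6 in aged cells were thus at or beyond the upper quartile, except Camk1d in young. These counts come from 1 merged list per age and strand and were not tested.

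**Figure D2:**
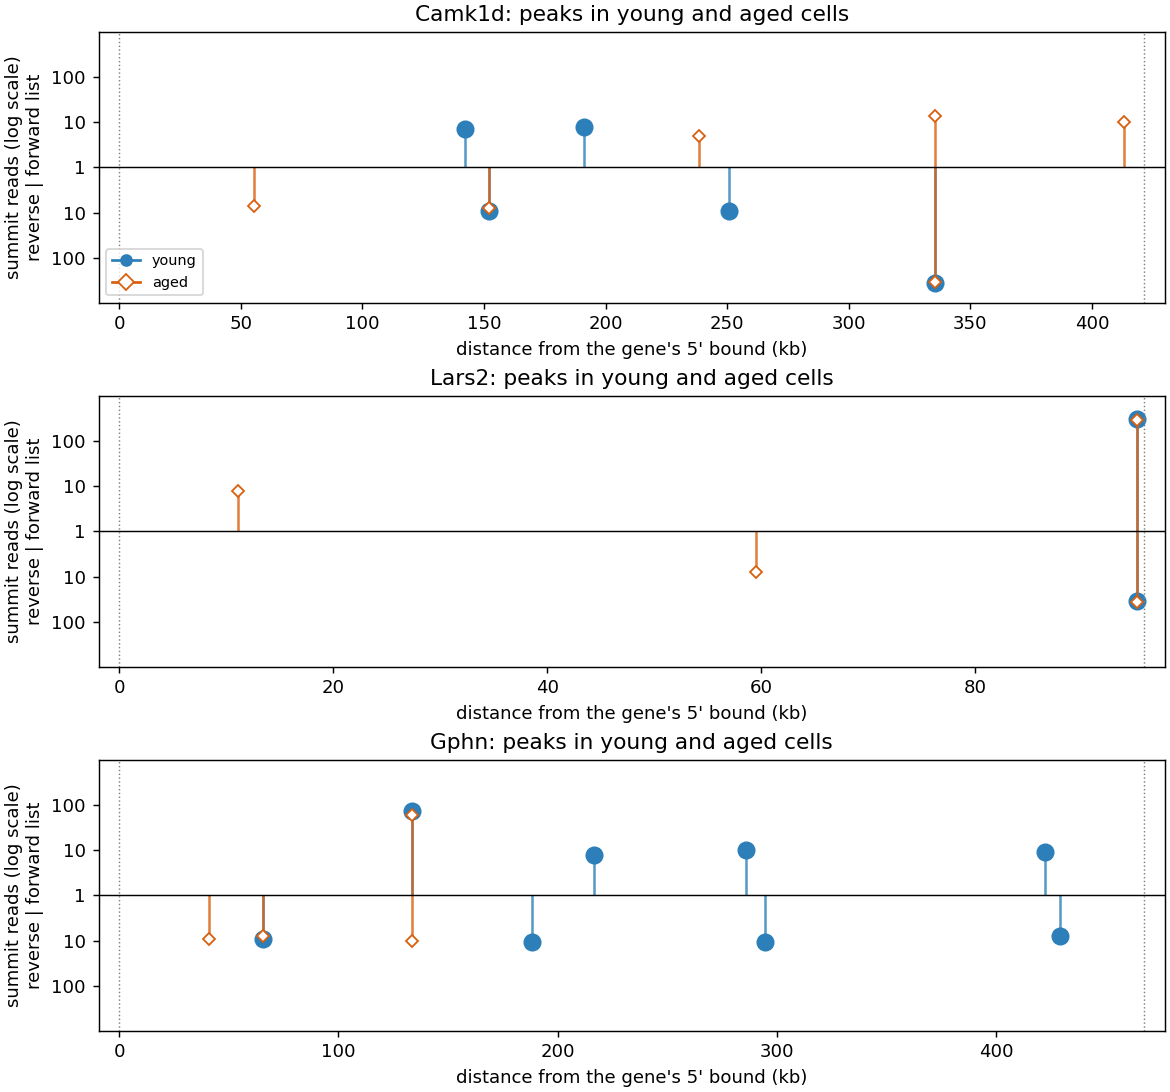
All 29 member peaks by distance of the summit from the 5′ bound of the gene in kb; stems point up for the forward and down for the reverse lists, and their length is the number of summit reads on a log scale. Filled circles are young and open diamonds aged peaks, and dotted lines are the gene bounds. The strong sites of both ages coincide, and the other peaks have at most 14 reads.

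Of the member peaks 6 of 15 young and 6 of 14 aged ones met a same-strand peak of the other age by 1 bp or more, against 7.29% of all young and 10.7% of all aged peaks. The strong sites, for which the genes were chosen, account for 4 of these 6 pairs. Of all peaks of at least 30 reads 87.2% of young and 61.9% of aged ones were found again in the other age. The other 2 pairs were small peaks of 9 young and 8 aged reads each. They made up 2 of 11 young and 2 of 9 aged member peaks of at most 11 reads, where 4.29% of young and 6.39% of aged peaks of that size were found again in the whole series. With numbers this small the difference is not more than a description. The remaining 9 young and 8 aged member peaks, of 5 to 14 reads, were found in 1 age only.

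A small Gphn pair had the same bounds in both ages. Its reverse peaks lay at chr12:78282870-78283098 in young and in aged cells, 229 bp wide, although their summits were 95 bp apart. The small Camk1d pair on the reverse strand, chr2:5562513-5562701 in young and chr2:5562606-5562857 in aged cells, shared only 96 bp and had summits 87 bp apart. Such identical edges were common in the series. Of 1755 pairs of peaks on the same strand 32.4% started at the same base, 26.9% ended at the same base and 9.86% did both. Even among 689 pairs of at most 11 reads in both ages 31.1% started at the same base. Of the 6 member pairs 3 started at the same base, so this does not set them apart.

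The summits of the strong member pairs lay close together. They differed by 4 bp at Camk1d, by 14 and 8 bp at the forward and reverse Lars2 peaks, and by 17 bp at Gphn, so all 4 were within 20 bp. Of the 275 pairs of at least 30 reads in both ages 65.5% had summits within 20 bp, and the median distance was 10 bp. The member pairs were therefore like other strong pairs in position. Their widths, 296 to 433 bp in young and 321 to 387 bp in aged cells, lay on either side of the median of these pairs in young, 347 bp, and at or below it in aged, 387 bp.

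The ratio of aged to young reads set these pairs beside a wide spread of others. The 4 strong member pairs had ratios of 0.836 to 1.06, which is what they were chosen for. Of the 275 pairs of at least 30 reads in both ages 70 (25.5%) had a ratio of 0.8 to 1.25, 72 (26.2%) lay below 0.8, 29 (10.5%) lay between 1.25 and 2, and 104 (37.8%) had 2 or more. In the same order, 26, 23, 1 and 27 of these pairs lay outside chromosomes 1 to 19, X and Y. Divided by the genome background of each age, 39 of the 275 lay below 0.8, 78 between 0.8 and 1.25, 44 between 1.25 and 2, and 114 at 2 or more. The reverse Lars2 pair, at 1.27, then left the band near 1. In the unscaled band from 0.8 to 1.25 an opposite-strand peak was present at 50% of the aged peaks, and at ratios of 2 or more at 97.1%. Among the 124 pairs of at least 100 reads in both ages the median ratio was 2.24 (quartiles 1.11 and 2.91), and 26 pairs, Camk1d and forward Lars2 among them, had fewer aged than young reads. Divided by the genome background of each age, 19 of these 124 pairs did, and the Camk1d and forward Lars2 pairs no longer belonged to them. On chromosomes 1 to 19, X and Y alone the median was 2.20 over 97 pairs. For comparison, the strongest shared peaks of Ttc21b, Ppp1r9a and Lpp had ratios of 4.17 (3.68 to 4.75), 2.92 (2.67 to 3.20) and 2.11 (1.58 to 2.85). These 3 genes were picked for more reads in aged cells and Camk1d, Lars2 and Gphn for like reads, so the gap between the groups was fixed by the choice.

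**Figure D3:**
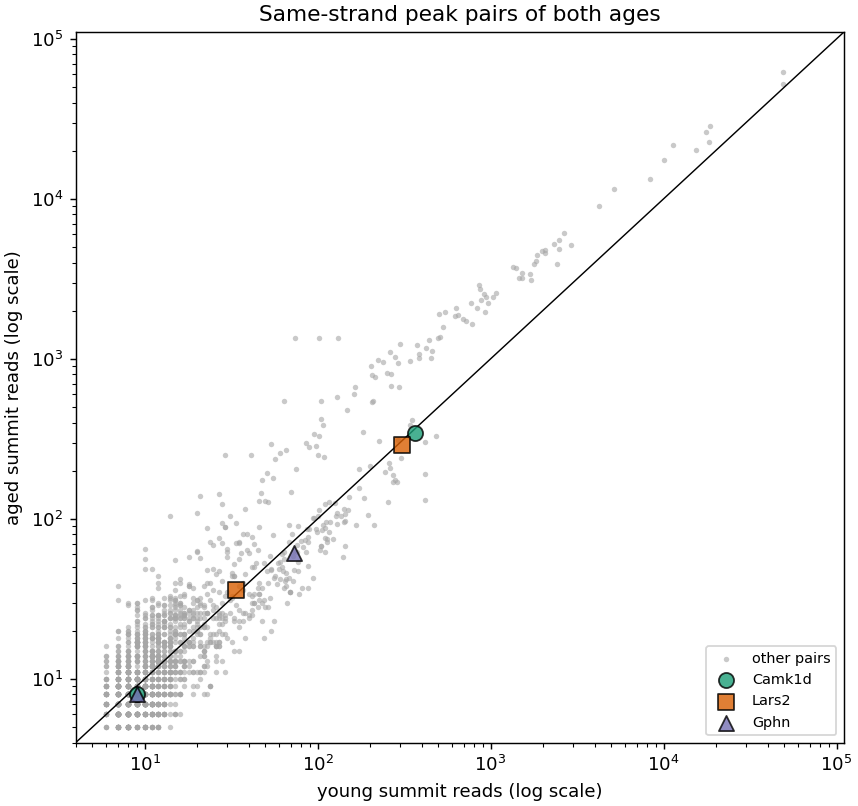
Summit reads in young and aged cells of the 1755 pairs of peaks that overlap on the same strand, both axes on a log scale; the line marks equal reads. Grey points are other pairs and coloured symbols the 6 pairs of Camk1d, Lars2 and Gphn, of which the small Camk1d and Gphn pairs coincide. The member pairs lie near the line, below the band of pairs with 2 or more times as many aged reads.

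The fold is computed over the local background, which did not move in the same direction at all strong pairs. The background was lower in aged cells at 3 of the 4, the forward and reverse Lars2 peaks (0.7 and 0.23 times the young value) and Gphn (0.567 times), and higher at Camk1d. The fold was higher in aged cells at the same 3 and lower at Camk1d. Over all 275 strong pairs the median ratio of aged to young background was 0.843 (quartiles 0.658 and 0.961), and the genome background of the young lists was 1.2 times that of the aged lists. The interval of the read ratio included 1 at all 4 pairs. The genes were chosen for like reads in both ages, so this is no test of sameness.

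**Figure D4:**
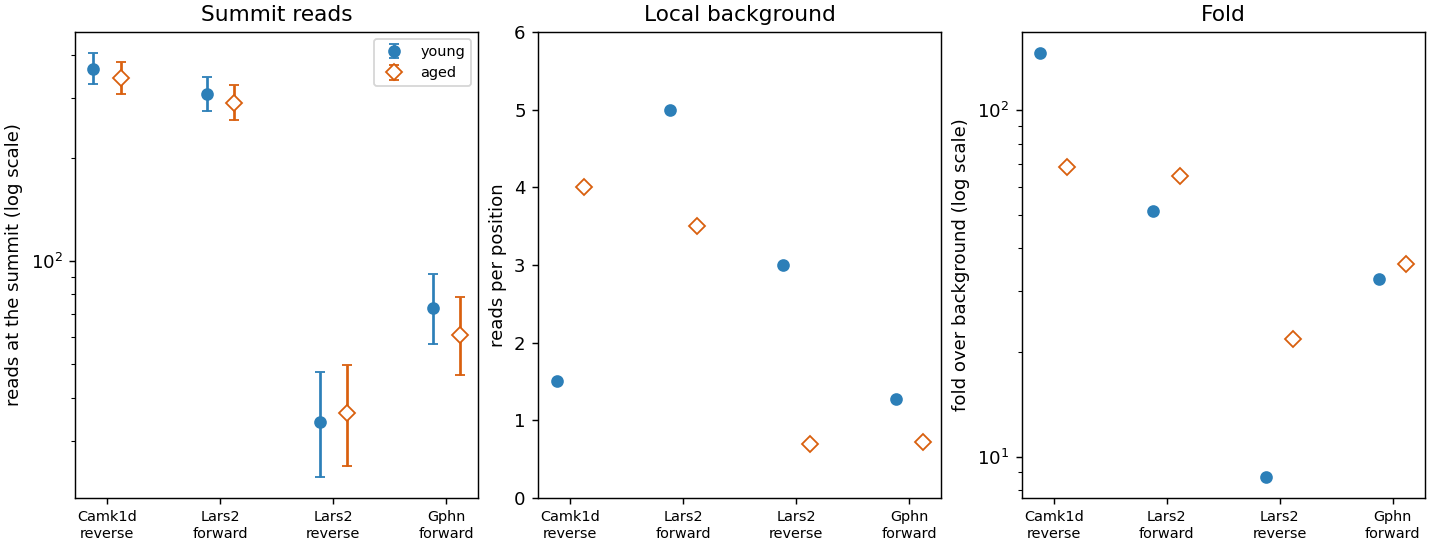
Summit reads with 95% Poisson intervals (left, log scale), local background in reads per position (middle) and fold (right, log scale) of the 4 strong member pairs; filled circles are young and open diamonds aged cells. The intervals of the reads overlap in every pair, while the fold is higher in young at Camk1d and higher in aged at Lars2 and Gphn. The genes were chosen for like reads in both ages.

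The genes with the most similar shared peak were sought among 552 named protein-coding genes on chromosomes 1 to 19, X and Y with a pair of peaks in both ages, each taken by its pair of highest young fold. Likeness was the distance over log2 of 4 values, the reads and the local background plus 1 in each of the 2 ages. Tmem267 was nearest to Lars2, at 0.568, with 260 young and 223 aged reads over backgrounds of 4.93 and 2.54. It was also nearest to Camk1d among these genes, but at 1.56. Other pairs were not searched. Jarid2, a cofactor of polycomb repression, came second to both with 144 and 97 reads. Ttc21b was the third for Camk1d, but at 2.68, with 299 young and 1248 aged reads, a ratio of 4.17. Cdk8, a kinase of the Mediator complex, was the third for Lars2 with 272 and 171 reads. The gene nearest to Gphn was Sfi1, which encodes a centrin-binding protein, at 1.08, with 94 and 43 reads. Ubtf, a factor for transcription of ribosomal RNA genes, and Wwox, at a common fragile site, followed at 1.28 and 1.32, and both had more aged than young reads. Their reads were 34 and 94 at Ubtf and 52 and 128 at Wwox.

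Genes that act with these 3 carried only small peaks, none of at least 30 reads. Peaks of that strength were 1.43% of young and 3.4% of aged peaks in the series. Their absence therefore does not set these lists apart. For each gene the reads given are those of its peak of highest fold in each age. Of 14 genes of the calmodulin kinase cascade 6 had a young and 5 an aged peak, 3 of them in both ages. The shares given above for all genes, 23.8% in young and 20% in aged cells, are over 21887 protein-coding genes. The 14 genes of the cascade cover 960 kb, and length was not matched. The kinase gene Camkk1, upstream of Camk1d, had a young peak of 7 reads. Camk1g, which encodes a related kinase, had a young peak of 7 reads, and Calm2, a calmodulin gene, one of 8. The calmodulin kinase genes Camk4 (11 young and 8 aged reads), Camk2d (9 and 6) and Camk2a (9 and 6) had peaks in both ages. The Camk2a pair overlapped. Camk2g and Creb1, the gene of a transcription factor that these kinases phosphorylate, had aged peaks only, of 10 and 9 reads.

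Of 19 genes for mitochondrial aminoacyl-tRNA synthetases and the glutamyl-tRNA amidotransferase, 7 had a young and 6 an aged peak, 3 of them in both ages. Over all protein-coding genes the shares were 23.8% and 20%. The 19 genes cover 1004 kb, and length was not matched. Fars2, for phenylalanine, had 2 young and 6 aged peaks, the strongest of 9 and 8 reads. Nars2, for asparagine, had 11 and 7 reads, and Wars2, for tryptophan, 8 and 11. Iars2 (11 reads), Ears2 (8 reads), Mars2 (6 reads) and Tars2 (6 reads) had a young peak and no aged one. Hars2 (10 reads) and Gatc (6 reads) had an aged peak and no young one. The gene of the cytosolic leucyl-tRNA synthetase, Lars, had 1 aged peak of 8 reads. No synthetase gene of the list thus had a peak near the strength of the Lars2 site. Strong peaks were rare in the whole series, so this is a description only.

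Of 17 genes for partners of gephyrin and for molybdenum cofactor synthesis, 6 had a young and 7 an aged peak, 4 of them in both ages. Over all protein-coding genes 23.8% had a young and 20% an aged peak. The 17 genes cover 1739 kb and length was not matched, so these counts are a description only. The molybdenum cofactor genes Mocs1, Mocs2 and Mocs3 had none. Glra2, a glycine receptor gene, had 3 peaks in each age, the strongest of 12 young and 6 aged reads. The GABA receptor genes Gabra3 and Gabra2 had peaks in both ages, of 7 and 15 reads at Gabra3 and of 9 and 8 reads at Gabra2. Glra3, a glycine receptor gene, had an aged peak of 8 reads and no young one. The dynein light chain gene Dynll2 had a young peak of 8 reads and no aged one.

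The nearest protein-coding neighbours of the strong sites had few reads. Limd1, 16.7 kb from the Lars2 site, had 2 peaks in each age with at most 19 reads. Ccdc3, 143 kb from the Camk1d site, had a young peak of 8 reads, and Cdc123, on the other side at 415 kb, an aged peak of 7 reads. Tmem158 on the other side of Lars2, and Gm6657 and Fam71d on either side of Gphn, had none.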

How the data were processed

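The 8 samples were grouped from their titles. Per the submitters' processing notes reads were handled with Trim Galore, with Bowtie2 (2.4.4), with MACS3 (3.0.0b1) and with deepTools (3.5.1), on GRCm38. No source used here gives the settings or how replicates were merged. The deposited lists give each peak's fold, a ratio of immunoprecipitated signal over local background, its −log10 p and −log10 q, a score that follows from the −log10 q, and the offset of its summit, all the authors' values.

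Each summit's reads and background were solved for from the deposited fold and the −log10 p, taking the fold as reads plus 1 over background plus 1 and p as a Poisson upper tail. A whole number of reads matched within 0.1% for 100% of peaks in each list. In simulated data 100% of 4000 summits came back exactly, and of 720 summits of broken reads 2.22% matched. The names of the deposited lists say that they are normalized, but no source used here says what was normalized. The reads were solved for as whole numbers. Whether the read numbers of the ages had been made alike before calling, on which the ratio between ages depends, is not known. Depth is unknown, and the recovered genome background stood in for it. Peaks were called shared at an overlap of 1 bp on the same strand.

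The ages were not tested against each other, because replicates are merged in the lists. Genes came from RefSeq (GRCm38.p6), gene strand and promoters from the promoter table of the same build. The 3 genes, the lists and the measures were chosen with earlier results of these data known. Named were the 3 genes, every gene with a peak in 3 lists of genes that act with them, the 3 most similar genes for each, the neighbours of each strong site, and marker genes of the gate; Ttc21b, Ppp1r9a and Lpp were added for comparison. A few genes of the lists are counted but not reported by name here. The main site of a gene is its young peak of highest fold. Alternatives were other gene bounds, a −log10 q or fold of at least 5, merging within 500 bp, other definitions of shared peaks, and other scalings of the reads. Scripts ran in Python 3.11.15 with scipy 1.17.1, numpy 2.4.6 and pandas 2.3.3.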

Additional observations from a re-analysis of the deposited data

How the results depend on the processing

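Of the 48 alternative values 42 lay within 1.5 times the count given above or, for a ratio, within its interval. A fold of at least 5 was among them and lowered the member peaks from 15 to 10 in young and from 14 to 11 in aged cells. A −log10 q of at least 5 lowered the member peaks from 15 to 6 in young and from 14 to 7 in aged cells, with 4 shared pairs left. Divided by the genome background of each age, the ratio of aged to young reads moved to 1.13 at Camk1d and 1.13 at Lars2, and the ratio of the deposited folds was 0.471 at Camk1d and 1.26 at Lars2; at Gphn these ratios, 0.999 and 1.11, stayed within the interval of the reads. With the young background used for both ages, an alternative chosen after seeing the data, the fold ratios were 0.942 at Camk1d, 0.945 at Lars2 and 0.838 at Gphn. The number of shared peaks lay between 4 and 6 in young and 4 and 8 in aged cells over all settings. No paired analysis was possible because the lists combine the replicates of an age, and for the same reason no replicate could be left out.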
